A study of Homo sapiens with 12 samples.

Results

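SPARCLE knockout HCT116 cells were compared after 48 h in medium with 1 µM doxorubicin and after 48 h in regular medium, called control here. The comparison used 4 of the series' 12 libraries, 2 biological replicates per medium, chosen by the sample titles and the matching columns of the deposited table. HCT116 is an established human colon carcinoma line and every group of the series is this line in the same growth medium. The other 8 libraries hold wild type (WT) cells and cells that over-express SPARCLE (OE), each in both media with 2 replicates. RNA of all groups was total RNA made into strand-specific libraries. The labels name no clone, guide or expression vector, so whether the knockout replicates are 1 line or several is not known. The p values measure only the spread between replicates within a group, pooled over all 12 libraries and not the 4 knockout libraries alone.

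Doxorubicin is an anthracycline that intercalates into DNA and holds topoisomerase II on cut DNA, which leaves double-strand breaks. Breaks activate the kinases ATM and ATR and, through them, the transcription factor p53. Targets of p53 halt the cell cycle, promote repair or start apoptosis, and the repressor complex DREAM, acting downstream of the p53 target CDKN1A, silences genes of DNA replication and mitosis. SPARCLE is itself described by the submitters as a p53-induced long non-coding RNA that bears on apoptosis and the cleavage of PARP-1, and the comparison shows which other RNAs changed in the cells labelled as its knockout.

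Values are levels in TPM, that is, reads scaled for the length of the gene and for the total of the library, given for replicate a and then b. Differences are doxorubicin minus control in log2 units on the log2(TPM + 1) scale, which understates the change of low genes, with limma's standard error (SE) from a fit to all 12 libraries. Calls were made where limma's p, adjusted by Benjamini and Hochberg's method over the 15256 genes tested, was under 0.05, and "rose" and "fell" are used of called genes only. In bulk RNA, fewer cells with a transcript and less transcript per cell cannot be told apart, nor can a change in the RNA content of a cell be seen in TPM.

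The knockout libraries held 15622388 and 16534102 recovered reads in control medium and 28804118 and 30687855 with doxorubicin, so the treated libraries were deeper. Between 50.02 and 56.02% of the summed TPM in these 4 libraries belonged to genes of small RNAs. The replicates of a medium stood apart from each other. Over the 9210 genes with a mean of at least 5 TPM, doxorubicin replicate a correlated with replicate b at Pearson's r = 0.949, and with OE doxorubicin replicate a at 0.993. Doxorubicin replicate b likewise stood closer to OE doxorubicin replicate b, at 0.986. Control replicate b correlated with control replicate a at 0.956 and with OE control replicate b at 0.983. These correlations are across genes, which are not independent replicates. The fit without control replicate b called 1167 genes and the fit without doxorubicin replicate a 1570, in place of 3695. Values without a knockout library are therefore given wherever leaving it out ended the call of a gene whose p is printed, moved a list's count by over 1.5 times or turned the sign of its median.

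SPARCLE, listed by its gene number and matched to MIR34BHG on chromosome 11 (111510602 to 111513888, GRCh38.p14), had 0 and 0 reads in the control libraries and 4 and 1 reads with doxorubicin. The WT libraries held 0 and 0 reads in control medium and 0 and 3 with doxorubicin, so this RNA was near the floor of 3 reads in both kinds of cells and does not check the knockout label. The OE libraries held 384 and 622 reads in control medium and 430 and 487 with doxorubicin. Its difference in knockout cells was 0.11 (SE 0.22) and was not called (adjusted p = 0.75), and both media lay near the floor. Other defining features of the line were present. The epithelial genes EPCAM, CDH1, KRT8, KRT18 and KRT19 were detected in all 4 libraries, with EPCAM at 126 and 163 TPM in control and 163 and 124 TPM with doxorubicin. KRT19 was at 1002 and 742 TPM in control and 1518 and 1422 TPM with doxorubicin.

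With doxorubicin 1510 genes rose (9.90% of those tested) and 2185 fell (14.3%), while 5853 had an unadjusted p under 0.05. The median difference over all genes was -0.01. When each library was scaled by its median ratio to the mean library, 2890 genes rose (18.9%) and 2846 fell (18.7%), so the share of rises among the calls went from 40.9 to 50.4%. Of the 3695 calls, 3593 were called in the same direction under that scaling. When TPM was computed without the small RNA genes, 2785 rose and 2361 fell. Leaving out a library moved both counts. Without control replicate b 299 genes rose (1.96%) and 868 fell (5.69%), and without doxorubicin replicate a 401 rose (2.63%) and 1169 fell (7.66%). Without control replicate a 1589 rose (10.4%) and 1613 fell (10.6%), and without doxorubicin replicate b 1783 rose (11.7%) and 1253 fell (8.21%), so rises outnumbered falls in that last fit. List counts below are to be read against 9.90 and 14.3%, and counts under the scaling or without a library against the shares of that fit.

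The calls were spread unevenly over gene classes. Among 12572 protein-coding genes 10.3% rose and 14.2% fell, and among 1445 long non-coding RNA genes 10.2 and 13.8%. Among 696 pseudogenes 5.03% rose and 19.8% fell, and reads of many pseudogenes may belong to their parent genes. Without control replicate b 5.32% of the pseudogenes fell, against 5.69% of all genes, so their larger share of falls did not appear in that fit. The shares of protein-coding genes that rose went from 1.94% without control replicate b to 11.8% without doxorubicin replicate b. Protein-coding genes differed by the span of genome they cover. Of those spanning up to 10 kb, 14.6% rose and 12.9% fell, and of those over 100 kb, 5.78% rose and 17.9% fell. The median span was 21.9 kb for the 1292 that rose, 40.3 kb for the 1784 that fell and 33.1 kb for the 9496 not called. With median-ratio scaling the short genes had 24.6% higher and 14.9% lower, and the long genes 12.9% higher and 24.8% lower. Without control replicate a the lower share was 10.5% in the shortest and 10.6% in the longest class, and without doxorubicin replicate a it was 7.94 and 7.15%, so the difference in falls did not appear in those fits. The share of rises was larger in the shortest than in the longest class in each of the 4 fits that left out a knockout library.

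**Figure D1:**
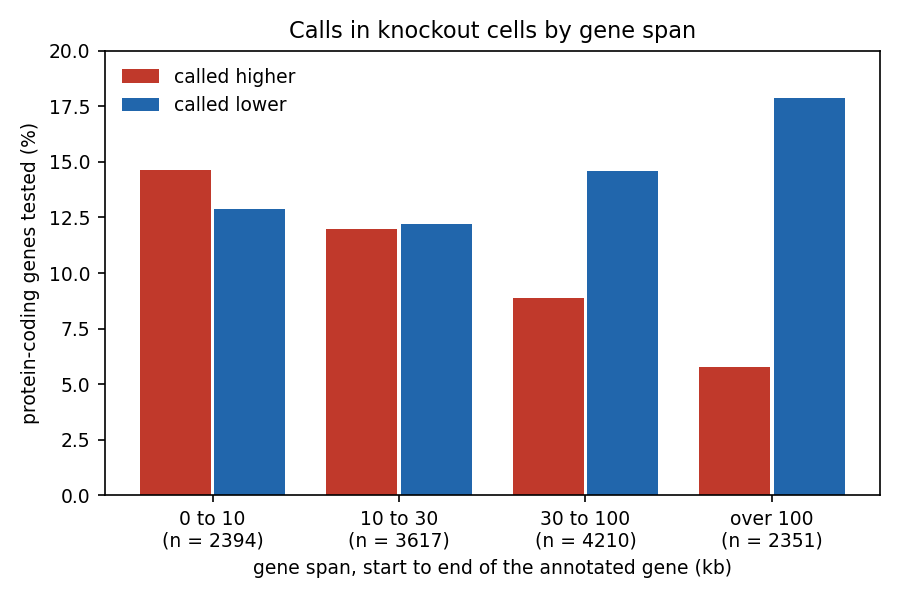
Share of tested protein-coding genes called higher (red bars) or lower (blue bars) with doxorubicin in knockout cells, in 4 classes of gene span in kb on the horizontal axis. The share of rises goes from 14.6% in the shortest class to 5.78% in the longest, and the share of falls from 12.9 to 17.9%.

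The 12 largest rises by the naming rule included p53 targets, keratins, barrier genes and an interferon-induced gene. TP53I3, a p53 target that encodes a quinone oxidoreductase, stood at 3.17 and 1.74 TPM in control and 484 and 85.9 TPM with doxorubicin. Both treated libraries lay far above both controls, and replicate a was well above replicate b. The difference was 5.92 (SE 0.64), adjusted p = 0.00018. KRT23, an acidic keratin, went from 9.89 and 3.53 to 246 and 158 TPM (4.82, SE 0.42, adjusted p = 6e-05). KRT20, a keratin of differentiated intestinal epithelium, went from 1.93 and 1.04 to 29.95 and 16.7 TPM (3.26, SE 0.32, adjusted p = 7.8e-05). ABCA12, a lipid transporter of the skin barrier, and LCE1F, a protein of the cornified envelope, were close to absent in control medium. ABCA12 rose from 0.368 and 0.164 to 42.7 and 7.54 TPM (3.94, SE 0.61, adjusted p = 0.0012). LCE1F rose from 0.3396 and 0.315 to 53.4 and 5.29 TPM (3.80, SE 0.73, adjusted p = 0.0036), and for both the treated libraries were several-fold apart while clear of the controls.

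IFI27, a mitochondrial protein induced by type I interferon, had 7.02 and 12.9 TPM in control and 133 and 138 TPM with doxorubicin, a difference of 3.69 (SE 0.55), adjusted p = 0.00093. LY6D, a small membrane-anchored protein of stratified epithelia, had 2.69 and 2.103 TPM in control and 28.9 and 53.5 TPM with doxorubicin (3.58, SE 0.45, adjusted p = 0.00034). FXYD3, a regulator of the sodium pump, had 4.96 and 6.14 TPM in control and 90.7 and 57.9 TPM with doxorubicin (3.49, SE 0.25, adjusted p = 2.8e-05). For IFI27, LY6D and FXYD3 the treated libraries lay closer together than for TP53I3 and LCE1F, and no treated library overlapped a control. Further rises were TLCD1 (3.23), the glycosyltransferase gene GALNT5 (3.21) and ITPRIPL2 (3.09). ITPRIPL2 had control values of 5.85 and 0.8499 TPM, a wide gap for 1 medium, and treated values of 34.4 and 24.9 TPM (adjusted p = 0.002).

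All of the 12 largest falls except HMGB2 and TMSB15A were genes of cell division. CDC20, which activates the anaphase-promoting complex, fell from 70.3 and 203 to 2.23 and 5.06 TPM (-4.77, SE 0.46, adjusted p = 7.8e-05). UBE2C, the ubiquitin-conjugating enzyme of that complex, fell from 21.5 and 96.4 to 1.71 and 1.99 TPM (-4.04, SE 0.47, adjusted p = 0.00025). TTK, the spindle checkpoint kinase, fell from 11.2 and 52.1 to 0.587 and 0.957 TPM (-3.85, SE 0.54, adjusted p = 0.00065). In all 3 genes control replicate b was several-fold above control replicate a, and the treated libraries were below both. NEK2, a centrosomal kinase, fell from 11.2 and 26.1 to 0.253 and 0.322 TPM (-3.82, SE 0.32, adjusted p = 5.3e-05). KIF20A, a kinesin of cytokinesis, fell from 14.1 and 22.4 to 0.487 and 0.2404 TPM (-3.79, SE 0.30, adjusted p = 4.6e-05). ANLN (-3.56), BIRC5 (-3.54), CCNB2 (-3.53), NUSAP1 (-3.44) and DLGAP5 (-3.42) act in the spindle, the midbody or mitotic entry. The remaining falls were HMGB2 (-3.71), a chromatin protein that bends DNA, and TMSB15A (-3.68), a thymosin that binds actin. HMGB2 stood at 31.6 and 67.3 TPM in control and 2.54 and 2.69 TPM with doxorubicin, and TMSB15A at 38.1 and 49.1 TPM in control and 1.22 and 4.38 TPM with doxorubicin.

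**Figure D2:**
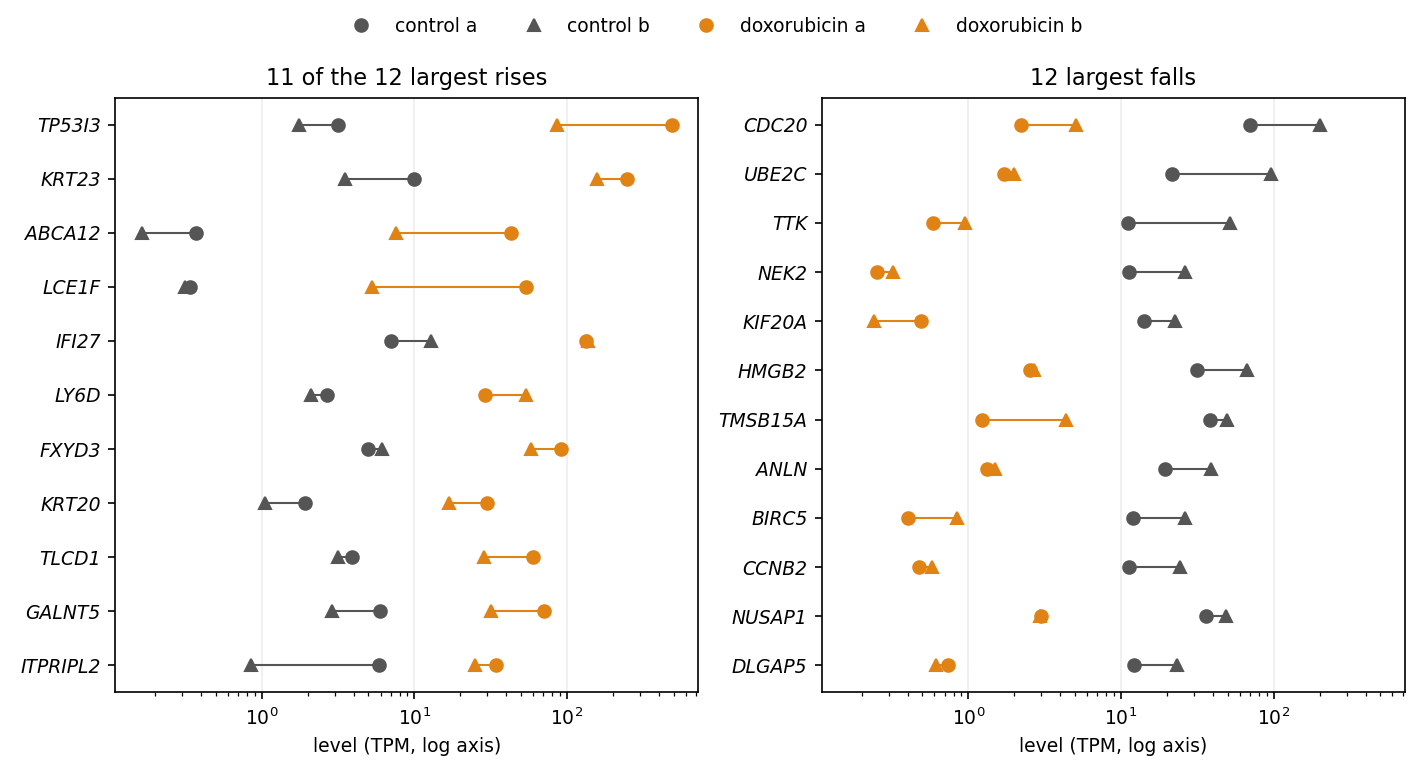
Levels in TPM (log axis) of 11 of the 12 largest rises (left) and the 12 largest falls (right) in each knockout library, grey for control and orange for doxorubicin, circles for replicate a and triangles for replicate b; lines join the replicates of a medium. In all genes shown the treated and control libraries are clear of each other, and LCE1F has the widest gap between treated replicates among those shown.

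Most targets of p53 rose. Of 49 tested, 29 rose and 1 fell, with a median difference of 1.19. CDKN1A, the cyclin-dependent kinase inhibitor p21, was at 103 and 87.6 TPM in control and 1026 and 505 TPM with doxorubicin (2.91, SE 0.35, adjusted p = 0.00027). MDM2, the ubiquitin ligase that degrades p53, went from 28.9 and 29.9 to 259 and 183 TPM (2.85, SE 0.26, adjusted p = 6.5e-05). RRM2B, a ribonucleotide reductase subunit that supplies nucleotides outside S phase, went from 45.6 and 44.2 to 204 and 116 TPM (1.75, SE 0.26, adjusted p = 0.0009). In each of these the treated libraries were both above the controls. The fall was TNFRSF10D, a decoy receptor for the death ligand TRAIL, from 61.1 and 51.1 to 16.6 and 20.6 TPM (-1.54, SE 0.26, adjusted p = 0.0019). The p53 targets called higher were 17 without control replicate b and 12 without doxorubicin replicate a, and called lower were 2 without control replicate a and 2 without doxorubicin replicate a. The median gap between doxorubicin replicates a and b over these genes was 1.02 log2 units, against 0.07 between the control replicates, so replicate a carried the higher levels.

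Of 11 tested long non-coding RNA genes related to p53, 4 rose and 2 fell, with a median of 1.08. PINCR, a p53-induced RNA on the X chromosome, rose from 0.0544 and 0.179 to 12.3 and 3.83 TPM (2.84, SE 0.49, adjusted p = 0.002). LINC-PINT rose from 4.75 and 3.46 to 20.6 and 9.92 TPM (1.60, SE 0.42, adjusted p = 0.017, 0.12 without control replicate b, 0.13 without doxorubicin replicate a). NORAD, an RNA that binds PUMILIO proteins, had 157 and 79.1 TPM in control and 252 and 222 TPM with doxorubicin (1.08, SE 0.29, adjusted p = 0.02, 0.22 without control replicate b, 0.083 without doxorubicin replicate a). The falls were NEAT1, the scaffold of nuclear paraspeckles, and GAS5, a host of small nucleolar RNAs. NEAT1 fell from 242 and 168 to 29.9 and 63.8 TPM (-2.18, SE 0.34, adjusted p = 0.0013). GAS5 had 232 and 318 TPM in control and 167 and 117 TPM with doxorubicin (-0.95, SE 0.31, adjusted p = 0.041, 0.25 without control replicate b, 0.17 without doxorubicin replicate b). The p53-related long non-coding RNA genes called higher were 1 without control replicate b and 1 without doxorubicin replicate a, and called lower were 1 without control replicate b and 1 without doxorubicin replicate b.

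Among all long non-coding genes the largest rises by the naming rule were PINCR, RNF157-AS1 (2.80), LNCAROD (2.36), UCA1 (2.30) and HOXA10-AS (2.18). UCA1, first described in bladder carcinoma, was the most abundant of them, with 44.6 and 22.2 TPM in control and 181 and 141 TPM with doxorubicin (adjusted p = 0.0057, 0.068 without control replicate b). RNF157-AS1 had 0.542 and 0.09104 TPM in control and 11.8 and 5.39 TPM with doxorubicin (adjusted p = 0.00054). The largest falls were ADIRF-AS1 (-2.18), NEAT1, RHOA-IT1 (-1.71), NPTN-IT1 (-1.69) and ZBTB40-IT1 (-1.62). The last 3 are intronic transcripts named after the genes that hold them, and each host was looked up for that reason. RHOA-IT1 had 4.94 and 9.27 TPM in control and 1.197 and 1.58 TPM with doxorubicin (adjusted p = 0.012, 0.12 without control replicate b, 0.053 without doxorubicin replicate a), and RHOA had 279 and 661 TPM in control and 211 and 242 TPM with doxorubicin, a difference of -0.92 that was not called at adjusted p = 0.0504, 0.0029 without control replicate a. NPTN-IT1 had 11.6 and 17.6 TPM in control and 4.68 and 2.93 TPM with doxorubicin (adjusted p = 0.0031), and NPTN fell by 0.87 (adjusted p = 0.0078, 0.055 without control replicate b, 0.079 without doxorubicin replicate a). ZBTB40-IT1 had 6.39 and 5.66 TPM in control and 1.07 and 1.53 TPM with doxorubicin (adjusted p = 0.002), while the difference of ZBTB40 was 0.17 (adjusted p = 0.65). Unspliced RNA of a host may be counted in such a transcript, so the 2 cannot be fully told apart.

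Genes of mitosis fell almost without exception. Of 54 tested, 50 fell and 0 rose, with a median of -2.23, and between 44 and 51 fell when any 1 knockout library was left out. KIF2C, a kinesin that shortens microtubules, fell from 12.4 and 18.8 to 0.603 and 0.909 TPM (-3.22, SE 0.27, adjusted p = 5.3e-05). NUSAP1, which bundles spindle microtubules, fell from 36.2 and 48.8 to 2.9996 and 2.95 TPM (-3.44, SE 0.26, adjusted p = 2.8e-05). The list's control libraries differed from each other, with a median gap of -0.65 for replicate a minus b, while the treated libraries differed by -0.05. The fall of the list was thus larger against control replicate b, and was present against either.

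Promoter windows of the mitosis genes are shown because most held the same pair of short motifs. The windows are RefSeq sequences of build GRCh38.p14, 250 bases before and 50 after the gene start, 5′ to 3′ on the gene's strand. The cell cycle homology region (CHR) was searched as TTTGAA or TTCGAA and the CCAAT box as CCAAT, on both strands, and the words of the 2 motifs do not overlap. Capitals mark every match of either, with TTCAAA as the CHR word on the opposite strand. CDC20 is at chr1:43358731-43359030 (plus strand), CCNB2 at chr15:59104896-59105195 (plus strand) and DLGAP5 at chr14:55191536-55191835 (minus strand).
CDC20: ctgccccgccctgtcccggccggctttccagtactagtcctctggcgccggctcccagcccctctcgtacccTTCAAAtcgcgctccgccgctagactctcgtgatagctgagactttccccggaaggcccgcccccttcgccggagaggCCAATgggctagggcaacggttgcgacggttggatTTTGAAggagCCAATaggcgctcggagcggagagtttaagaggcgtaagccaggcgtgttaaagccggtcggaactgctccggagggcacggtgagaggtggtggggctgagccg
CCNB2: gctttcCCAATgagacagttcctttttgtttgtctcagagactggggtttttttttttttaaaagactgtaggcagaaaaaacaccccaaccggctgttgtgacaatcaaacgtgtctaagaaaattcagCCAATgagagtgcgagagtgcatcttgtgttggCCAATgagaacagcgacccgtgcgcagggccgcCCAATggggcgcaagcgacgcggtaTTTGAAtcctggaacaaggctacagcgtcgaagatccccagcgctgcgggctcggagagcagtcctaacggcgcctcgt
DLGAP5: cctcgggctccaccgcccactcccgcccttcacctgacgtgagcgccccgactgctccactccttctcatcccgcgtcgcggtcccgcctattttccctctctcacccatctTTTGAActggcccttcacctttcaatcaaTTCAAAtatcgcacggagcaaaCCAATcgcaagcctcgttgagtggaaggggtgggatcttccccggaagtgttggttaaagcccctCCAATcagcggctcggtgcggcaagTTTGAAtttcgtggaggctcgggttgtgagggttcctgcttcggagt
Of the 47 mitosis genes with a window, 34 (72.3%) held a CHR word and 35 (74.5%) a CCAAT word, and 27 (57.4%) held both. The windows shown hold both. Among the falls named above, the windows of KIF20A, NEK2 and TMSB15A held no CHR word and that of ANLN no CCAAT word. This says only that these letters are not in those windows. Over all 27305 windows of the RefSeq set 16.6% held a CHR word, 35.7% a CCAAT word and 6.58% both. Both words were present in 9.20% of the 1468 windows of genes that fell, 2.96% of the 1046 of genes that rose and 4.76% of the 10475 of all genes tested. A match is a description of the letters and not a binding site.

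Genes of DNA replication fell in part. Of 53 tested, 27 fell and 0 rose, with a median of -0.78, and scaling by median ratios gave 3 higher and 31 lower. CDC6, which loads the replicative helicase, fell from 9.63 and 13.8 to 2.18 and 2.74 TPM (-1.86, SE 0.26, adjusted p = 0.00064). MCM10, a factor of fork firing, fell from 2.997 and 3.297 to 0.313 and 0.673 TPM (-1.48, SE 0.23, adjusted p = 0.0011). RRM2, the S phase subunit of ribonucleotide reductase, fell from 9.15 and 31.7 to 0.707 and 2.296 TPM (-2.94, SE 0.46, adjusted p = 0.0012). CLSPN, which links stalled forks to the kinase CHK1, fell by 1.62 (adjusted p = 0.0012). DNA replication genes called higher were 1 without doxorubicin replicate b, and called lower were 8 without control replicate b and 14 without doxorubicin replicate a. PCNA, the sliding clamp and also a p53 target, had 84.1 and 110.1 TPM in control and 399 and 129.8 TPM with doxorubicin. Its treated libraries were over both controls but far apart, and it was not called (1.23, adjusted p = 0.057, 0.0017 without doxorubicin replicate b); it was chosen after its values were seen. An E2F word (TTTGGCGC, TTTCCCGC, TTTCGCGC or TTTGCCGC, both strands) was present in 23 of 45 replication windows (51.1%), against 3.33% of all windows, and in 6.38% of the mitosis windows. A CHR word was present in 4.44% of the replication windows.

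Of 33 genes of homologous recombination and the Fanconi pathway, 16 fell and 2 rose, with a median of -0.73. MND1, which aids strand exchange, fell from 4.24 and 9.18 to 0.374 and 0.394 TPM (-2.40, SE 0.29, adjusted p = 0.0003). BARD1, the partner of BRCA1, fell from 6.69 and 8.33 to 1.35 and 1.47 TPM (-1.81, SE 0.24, adjusted p = 0.00046). EME1 (-1.86) and FANCB (-1.73) fell too. The rises were RMI2 (1.02, adjusted p = 0.015, 0.13 without control replicate b, 0.1 without doxorubicin replicate a) and FANCF (1.12, adjusted p = 0.016, 0.16 without control replicate b, 0.081 without doxorubicin replicate a), both under 6 TPM. Homologous recombination and Fanconi genes called higher were 0 without control replicate b, 0 without doxorubicin replicate a and 4 without doxorubicin replicate b, and called lower were 8 without control replicate b, and scaling by median ratios gave 5 higher and 17 lower. The excision and mismatch repair list showed no common direction, with 3 higher and 3 lower of 34 and a median of 0.07. MSH6, a mismatch recognition protein, fell from 11.02 and 9.67 to 2.27 and 3.05 TPM (-1.64, SE 0.25, adjusted p = 0.0012), and NEIL3, a glycosylase of S phase, fell by 1.69 (adjusted p = 0.00091). NEIL1, a glycosylase of oxidised bases, went from 1.698 and 1.12 to 8.62 and 3.72 TPM (1.495, SE 0.40, adjusted p = 0.018, 0.12 without control replicate b, 0.15 without doxorubicin replicate a). Nucleotide excision, mismatch and base excision repair genes called higher were 0 without control replicate b and 0 without doxorubicin replicate a, and scaling by median ratios gave 6 higher and 4 lower. Nucleotide excision, mismatch and base excision repair genes had a median of -0.0042 without doxorubicin replicate a, opposite in sign.

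Most genes of the damage sensor and checkpoint list were not called. TOP2A and TOP2B, the forms of topoisomerase II, the target of the drug, fell, and so did TOP1. Of 33 genes 6 fell, 1 rose and 26 were not called, with a median of -0.41. TOP2A, the topoisomerase II of dividing cells, fell from 17.98 and 44.9 to 1.95 and 2.02 TPM (-3.31, SE 0.35, adjusted p = 0.00016). TOP1 fell from 64.5 and 90.9 to 47.3 and 45.8 TPM (-0.71, SE 0.23, adjusted p = 0.039, 0.3 without control replicate b, 0.12 without doxorubicin replicate a, 0.11 without doxorubicin replicate b). TOP2B, the form that resting cells keep and looked up after its values were seen, had 52.2 and 50.8 TPM in control and 32.6 and 36.6 TPM with doxorubicin (-0.56, SE 0.19, adjusted p = 0.046, 0.13 without control replicate a, 0.16 without control replicate b, 0.25 without doxorubicin replicate a, 0.092 without doxorubicin replicate b). MDC1 (-0.84, adjusted p = 0.027, 0.085 without control replicate a, 0.091 without control replicate b, 0.13 without doxorubicin replicate a, 0.072 without doxorubicin replicate b) and RNF168 (-0.85, adjusted p = 0.031, 0.086 without control replicate a, 0.13 without control replicate b, 0.18 without doxorubicin replicate b), which build the repair platform on broken chromatin, fell. ATRIP, the partner of ATR, rose by 1.00 (adjusted p = 0.0497, 0.3 without control replicate b, 0.31 without doxorubicin replicate a). Damage sensor and checkpoint genes called higher were 0 without control replicate b and 0 without doxorubicin replicate a, and called lower were 2 without control replicate a, 1 without control replicate b, 2 without doxorubicin replicate a and 1 without doxorubicin replicate b, and scaling by median ratios gave 1 higher and 10 lower. Of 15 genes for transport and reduction of anthracyclines, 6 rose and 1 fell (median 0.39). ABCC2, a conjugate export pump, rose from 36.1 and 22.1 to 261 and 155 TPM (2.79, SE 0.33, adjusted p = 0.00028), and ABCC3 rose by 1.36 (adjusted p = 0.0082, 0.079 without control replicate b, 0.069 without doxorubicin replicate a). ABCB1, the P-glycoprotein that exports doxorubicin, fell from 3.44 and 2.83 to 0.641 and 0.686 TPM (-1.31, SE 0.24, adjusted p = 0.0028). Anthracycline transport and reduction genes called higher were 2 without control replicate b and 2 without doxorubicin replicate a, and called lower were 2 without control replicate b.

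Enzymes that use or remove ADP-ribose moved in both directions. Of 31 tested, 7 rose and 6 fell, with a median of 0.10. PARP1, the main polymerase at DNA breaks, was at 52.2 and 46.7 TPM in control and 24.5 and 30.5 TPM with doxorubicin, clear of each other. Its difference was -0.83 (SE 0.22), adjusted p = 0.018, 0.075 without control replicate a, 0.068 without control replicate b, 0.14 without doxorubicin replicate a. PARP2 fell from 20.8 and 29.3 to 10.1 and 7.76 TPM (-1.38, SE 0.31, adjusted p = 0.0079, 0.083 without control replicate b), and NAMPT, which makes the NAD+ precursor these enzymes consume, fell from 22.4 and 25.9 to 11.98 and 9.76 TPM (-1.09, SE 0.23, adjusted p = 0.0055, 0.057 without control replicate b). TIPARP fell by 0.98 (adjusted p = 0.017, 0.17 without control replicate b, 0.075 without doxorubicin replicate a). The rises were led by members that interferon is known to induce. PARP9 rose from 1.75 and 0.878 to 14.5 and 13.5 TPM (2.72, SE 0.33, adjusted p = 0.00028), PARP14 from 3.596 and 2.005 to 31.04 and 16.01 TPM (2.65, SE 0.36, adjusted p = 0.00057), and PARP12 from 2.39 and 1.49 to 16.3 and 13.7 TPM (2.45, SE 0.29, adjusted p = 0.00026). PARP family and ADP-ribose genes called higher were 3 without control replicate b and 4 without doxorubicin replicate a, and called lower were 3 without control replicate a, 0 without control replicate b and 2 without doxorubicin replicate a. PARP family and ADP-ribose genes had a median of -0.14 without control replicate b, opposite in sign. RNA levels do not show the cleavage of the PARP-1 protein.

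Pro-apoptotic genes were called higher more often than lower, and single members differed. Of 32 pro-apoptotic genes 13 rose and 1 fell, with a median of 0.58. FAS, a death receptor, went from 2.38 and 2.04 to 35.1 and 10.3 TPM (2.65, SE 0.48, adjusted p = 0.0026). TNFRSF10A, a receptor of TRAIL, went from 16.4 and 12.1 to 112 and 41.2 TPM (2.19, SE 0.47, adjusted p = 0.0064, 0.06 without control replicate b). BID, which carries the signal of death receptors to mitochondria, went from 4.68 and 4.75 to 19.3 and 12.4 TPM (1.53, SE 0.28, adjusted p = 0.0029). BMF, a BH3-only protein, fell from 5.35 and 3.77 to 0.783 and 1.03 TPM (-1.53, SE 0.26, adjusted p = 0.0019). Pro-apoptotic genes called higher were 3 without control replicate b and 4 without doxorubicin replicate a. The p53 targets PMAIP1 and BBC3, looked up after other values were seen, were not called. PMAIP1 (NOXA) had 49.6 and 106 TPM in control and 180.3 and 57.8 TPM with doxorubicin, and BBC3 (PUMA) had 12.3 and 15.9 TPM in control and 27.1 and 8.06 TPM with doxorubicin, so in both genes the media overlapped. Of 14 anti-apoptotic genes 2 rose and 5 fell (median -0.05). BCL2L1, which encodes BCL-XL, rose from 68.1 and 63.1 to 118 and 117 TPM (0.83, SE 0.24, adjusted p = 0.023, 0.053 without control replicate a, 0.13 without control replicate b, 0.087 without doxorubicin replicate a, 0.059 without doxorubicin replicate b). BIRC3 fell from 14.4 and 16.6 to 6.52 and 3.64 TPM (-1.48, SE 0.32, adjusted p = 0.0068, 0.058 without control replicate b), and DAD1, a subunit of the oligosaccharyltransferase, fell by 1.10 (adjusted p = 0.0036). TNFRSF10C, a decoy receptor, rose by 2.04 (adjusted p = 0.011, 0.08 without control replicate b, 0.087 without doxorubicin replicate a), against the fall of TNFRSF10D. Anti-apoptotic genes called higher were 1 without control replicate a, 0 without control replicate b and 0 without doxorubicin replicate a, and called lower were 2 without control replicate b and 3 without doxorubicin replicate b, and scaling by median ratios gave 5 higher and 5 lower. Anti-apoptotic genes had a median of 0.14 without doxorubicin replicate b, opposite in sign.

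Interferon-stimulated genes had the highest median of the 37 lists. These genes are switched on by transcription factors downstream of the interferon receptors, and many act against viral RNA. Of 45 tested, 33 rose and 0 fell (median 1.42), and 24 to 33 rose when 1 knockout library was left out. OAS1, which makes the second messenger that activates RNase L, went from 0.619 and 0.293 to 11.5 and 10.4 TPM (3.04, SE 0.29, adjusted p = 7.2e-05). SAMD9, an antiviral factor, went from 7.58 and 4.505 to 58.2 and 42.2 TPM (2.88, SE 0.30, adjusted p = 0.00015). IFI35 went from 3.196 and 1.99 to 16.5 and 15.8 TPM (2.28, SE 0.26, adjusted p = 0.00022). The treated replicates of these genes lay closer together than those of the p53 targets, with a median gap over the list of 0.26 for doxorubicin replicate a minus b, against 1.02 for the p53 list.

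Windows of 3 risen interferon genes are shown because the interferon-stimulated response element was frequent among the list. It was searched as GAAA, any 2 bases and GAAA again, on both strands, and capitals mark the matches, with TTTC at the ends where the match is on the opposite strand. The windows are RefSeq sequences of GRCh38.p14, IFI27 at chr14:94110486-94110785 (plus strand), SAMD9 at chr7:93117930-93118229 (minus strand) and PARP12 at chr7:140062902-140063201 (minus strand).
IFI27: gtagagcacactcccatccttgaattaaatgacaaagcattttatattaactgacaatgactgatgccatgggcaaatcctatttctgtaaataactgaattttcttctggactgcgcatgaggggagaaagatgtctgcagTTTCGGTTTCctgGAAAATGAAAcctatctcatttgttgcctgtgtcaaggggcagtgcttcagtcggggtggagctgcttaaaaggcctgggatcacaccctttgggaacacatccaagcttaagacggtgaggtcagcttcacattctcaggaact
SAMD9: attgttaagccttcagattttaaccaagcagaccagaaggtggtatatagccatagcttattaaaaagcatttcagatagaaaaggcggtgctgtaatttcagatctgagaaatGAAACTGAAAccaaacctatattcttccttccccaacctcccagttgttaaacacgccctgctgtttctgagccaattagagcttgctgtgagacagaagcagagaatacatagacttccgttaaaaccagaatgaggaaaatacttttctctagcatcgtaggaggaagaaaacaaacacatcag
PARP12: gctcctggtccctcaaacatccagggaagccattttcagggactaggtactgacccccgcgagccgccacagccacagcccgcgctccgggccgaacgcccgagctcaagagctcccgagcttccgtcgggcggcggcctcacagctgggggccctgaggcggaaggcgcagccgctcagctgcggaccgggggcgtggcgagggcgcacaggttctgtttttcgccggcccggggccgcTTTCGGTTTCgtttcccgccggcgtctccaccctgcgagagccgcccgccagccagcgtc
The word was present in 24 of 38 windows of the list (63.2%) and in 9 of 14 windows of the class I presentation list (64.3%). It was present in 3.65% of all windows, 5.93% of those of genes that rose and 1.98% of those of genes that fell. The windows of OAS1, PARP9 and IFI35 held none, which says only that these letters are not in those windows.

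Of 18 genes of class I antigen presentation, 8 rose and 2 fell, with a median of 0.37. PSMB10, an immunoproteasome subunit, rose from 5.21 and 5.06 to 36.6 and 17.4 TPM (2.10, SE 0.34, adjusted p = 0.0015). TAP1, which forms the peptide transporter with TAP2, rose from 9.04 and 7.37 to 55.9 and 26.2 TPM (2.10, SE 0.38, adjusted p = 0.0026), and TAP2 rose by 1.30 (adjusted p = 0.0048). HLA-E, a class I heavy chain, was among the falls, from 111 and 123 to 70.8 and 66.9 TPM (-0.76, SE 0.22, adjusted p = 0.024, 0.14 without control replicate b, 0.079 without doxorubicin replicate a, 0.082 without doxorubicin replicate b). Class I genes are near copies of each other and their reads may be split. MHC class I antigen presentation genes called higher were 5 without control replicate a, 3 without control replicate b and 3 without doxorubicin replicate a, and called lower were 0 without control replicate b, 0 without doxorubicin replicate a and 1 without doxorubicin replicate b.

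The inflammatory lists were divided. Of 20 NF-kB genes and targets, 4 rose and 4 fell (median 0.15). ICAM1, an adhesion molecule, rose from 3.78 and 1.89 to 18.5 and 14.05 TPM (2.20, SE 0.34, adjusted p = 0.0011), and TNFAIP2 rose by 2.35 (adjusted p = 0.0037). Among the factors themselves NFKB1 rose by 1.62 (adjusted p = 0.0064, 0.071 without control replicate b, 0.056 without doxorubicin replicate a), while REL fell by 1.51 (adjusted p = 0.0031) and RELA fell by 0.84 (adjusted p = 0.018, 0.093 without control replicate a, 0.053 without control replicate b, 0.085 without doxorubicin replicate a, 0.07 without doxorubicin replicate b). NF-kB genes and targets called higher were 2 without doxorubicin replicate a, and called lower were 2 without control replicate a, 1 without control replicate b, 2 without doxorubicin replicate a and 2 without doxorubicin replicate b. NF-kB genes and targets had a median of -0.09 without doxorubicin replicate a, opposite in sign. Of 28 secreted stress factors tested, of 40 listed, 6 rose and 5 fell (median -0.24). GDF15, a stress cytokine and p53 target, went from 57.4 and 88.4 to 676 and 187 TPM (2.30, SE 0.56, adjusted p = 0.012, 0.057 without control replicate a, 0.08 without doxorubicin replicate a). CSF1, the macrophage growth factor, rose by 2.23 (adjusted p = 0.0062, 0.057 without control replicate b), and LIF by 2.02 (adjusted p = 0.01, 0.11 without control replicate b, 0.065 without doxorubicin replicate a). TIMP1, a metalloproteinase inhibitor, fell from 258 and 187 to 93.5 and 109 TPM (-1.12, SE 0.25, adjusted p = 0.0074). SERPINE2 (-0.95, adjusted p = 0.015, 0.086 without control replicate a, 0.14 without doxorubicin replicate a) and MMP1 (-0.73, adjusted p = 0.033, 0.27 without control replicate b, 0.17 without doxorubicin replicate a, 0.058 without doxorubicin replicate b) fell as well. Secreted stress factors called higher were 1 without control replicate b and 1 without doxorubicin replicate a, and called lower were 2 without control replicate a, 2 without control replicate b, 2 without doxorubicin replicate a and 3 without doxorubicin replicate b. Secreted stress factors had a median of 0.07 without control replicate b and 0.14 without doxorubicin replicate b, opposite in sign.

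Immediate early genes, whose short-lived RNAs follow growth factor signals, were called lower more often than higher. Of 29 tested, 13 fell and 1 rose, with a median of -0.80. EGR1 fell from 41.1 and 42.4 to 5.33 and 9.23 TPM (-2.41, SE 0.26, adjusted p = 0.00018). ZFP36, which binds AU-rich RNA for decay, fell from 105 and 89.2 to 17.9 and 26.5 TPM (-2.10, SE 0.25, adjusted p = 0.00028). KLF2 (-2.09) and NR4A1 (-1.90) fell in step, with both treated libraries below both controls. MYC was the rise, from 132 and 78.9 to 257 and 255 TPM (1.32, SE 0.40, adjusted p = 0.032, 0.24 without control replicate b, 0.082 without doxorubicin replicate a, 0.056 without doxorubicin replicate b). AP-1 and immediate early genes called higher were 2 without control replicate a, 0 without control replicate b, 0 without doxorubicin replicate a and 0 without doxorubicin replicate b.

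Most genes of ribosomal proteins fell, and nearly all calls among genes of ribosome assembly were rises. Of 79 genes of cytosolic ribosomal proteins, 55 fell and 0 rose, with a median of -0.76. RPL12 fell from 680.4 and 843 to 249 and 246 TPM (-1.61, SE 0.19, adjusted p = 0.00024) and RPL3 from 503 and 561 to 148 and 213 TPM (-1.58, SE 0.21, adjusted p = 0.00049). RPS2 (-1.23) and RPS9 (-1.05) fell by less. Ribosomal protein genes have many processed pseudogenes, so reads of single members may be split. Cytosolic ribosomal protein genes called lower were 8 without control replicate b, 26 without doxorubicin replicate a and 32 without doxorubicin replicate b, and scaling by median ratios gave 0 higher and 33 lower. Of 48 ribosome biogenesis genes, 21 rose and 1 fell (median 0.61). POLR1A, the largest subunit of RNA polymerase I, rose from 7.404 and 4.83 to 20.99 and 19.4 TPM (1.60, SE 0.30, adjusted p = 0.0033). PES1, needed for the large subunit, rose from 25.4 and 21.9 to 54.6 and 54.6 TPM (1.18, SE 0.24, adjusted p = 0.0046), and MRTO4 by 1.21 (adjusted p = 0.0068, 0.082 without control replicate b). FBL, the methyltransferase fibrillarin, fell from 75.5 and 105 to 34.5 and 46.7 TPM (-1.13, SE 0.24, adjusted p = 0.0057, 0.072 without control replicate b, 0.053 without doxorubicin replicate a). Ribosome biogenesis genes called higher were 2 without control replicate b and 3 without doxorubicin replicate a, and called lower were 0 without control replicate b.

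Of 20 aminoacyl-tRNA synthetase genes 5 rose and 0 fell (median 0.28). FARSA rose by 1.05 (adjusted p = 0.012, 0.055 without control replicate a, 0.071 without doxorubicin replicate a), IARS by 0.80 (adjusted p = 0.012, 0.11 without control replicate b, 0.069 without doxorubicin replicate a), NARS by 0.92 (adjusted p = 0.013, 0.11 without control replicate b, 0.11 without doxorubicin replicate a) and TARS by 0.70 (adjusted p = 0.022, 0.095 without control replicate a, 0.073 without control replicate b, 0.18 without doxorubicin replicate a). Aminoacyl-tRNA synthetase genes called higher were 2 without control replicate a, 1 without control replicate b and 0 without doxorubicin replicate a. Of 22 amino acid stress genes 4 rose and 3 fell (median 0.15). That share of falls is close to the 14.3% of all tested genes that fell, and the few rises stand beside 9.90%. Called enzymes of the serine pathway moved in both directions. PHGDH, its first enzyme, fell from 15.05 and 13.04 to 3.93 and 4.64 TPM (-1.51, SE 0.24, adjusted p = 0.0013). PSAT1, the next enzyme, rose from 18.5 and 13.6 to 52.8 and 45.4 TPM (1.57, SE 0.22, adjusted p = 0.00069), and PSPH, the last, rose by 1.45 (adjusted p = 0.0062, 0.075 without control replicate b, 0.055 without doxorubicin replicate a). ASNS, asparagine synthetase, fell by 1.08 (adjusted p = 0.0049), and DDIT3, the stress factor CHOP, fell from 43.4 and 83.3 to 25.6 and 7.97 TPM (-1.99, SE 0.54, adjusted p = 0.019, 0.16 without control replicate b, 0.1 without doxorubicin replicate b). Amino acid stress genes called higher were 2 without control replicate a, 1 without control replicate b and 1 without doxorubicin replicate a, and scaling by median ratios gave 7 higher and 3 lower.

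Chaperones were read as separate lists for the endoplasmic reticulum and the other compartments. Of 26 genes of the endoplasmic reticulum list 9 fell and 0 rose (median -0.51). HSPA5, the chaperone BiP, was at 147 and 587 TPM in control and 70.8 and 83.7 TPM with doxorubicin (-1.92, SE 0.44, adjusted p = 0.0085), and control replicate b stood far above replicate a. P4HB, a protein disulfide isomerase, fell from 338 and 503 to 119.6 and 141 TPM (-1.66, SE 0.21, adjusted p = 0.00035), HERPUD1 by 1.64 (adjusted p = 0.0011) and HSP90B1 by 1.45 (adjusted p = 0.0045, 0.051 without control replicate b). ER chaperone and unfolded protein genes called lower were 3 without control replicate b, 5 without doxorubicin replicate a and 5 without doxorubicin replicate b. Of 22 heat shock protein genes 7 rose and 2 fell (median 0.47). HSPA8, the constitutive cytosolic HSP70, rose from 414 and 422 to 955 and 819 TPM (1.08, SE 0.20, adjusted p = 0.0035). HSPE1 rose by 1.17 (adjusted p = 0.0043) and HSPH1 by 1.29 (adjusted p = 0.0064, 0.075 without control replicate b). DNAJB1, a co-chaperone induced by heat, fell from 107 and 142 to 51.6 and 57.6 TPM (-1.16, SE 0.23, adjusted p = 0.0046, 0.058 without control replicate b), and HSF2 by 0.82 (adjusted p = 0.02, 0.15 without control replicate b, 0.11 without doxorubicin replicate b). Heat shock protein genes called higher were 4 without control replicate a, 2 without control replicate b and 3 without doxorubicin replicate a, and called lower were 0 without control replicate b and 1 without doxorubicin replicate b.

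Targets of NRF2, the factor of oxidative stress, rose in 9 of 23 cases and fell in 1 (median 0.69). Besides ABCC2 and ABCC3, HMOX1, haem oxygenase, rose from 9.45 and 17.4 to 44.8 and 25.2 TPM (1.32, SE 0.33, adjusted p = 0.013, 0.089 without control replicate a, 0.11 without doxorubicin replicate a). The fall was FTL, the ferritin light chain, from 4356 and 8126 to 1448 and 1536 TPM (-1.996, SE 0.28, adjusted p = 0.00064). NRF2 targets called higher were 4 without control replicate a, 3 without control replicate b and 1 without doxorubicin replicate a. Genes of cholesterol and fatty acid synthesis fell in 12 of 35 cases and rose in 3 (median -0.59). INSIG1, the sterol sensor that retains SREBP in the endoplasmic reticulum, fell from 78.1 and 128 to 10.1 and 9.403 TPM (-3.23, SE 0.38, adjusted p = 0.00025). HMGCS1, an early step of the mevalonate pathway, fell from 35.7 and 58.2 to 14.8 and 13.1 TPM (-1.65, SE 0.30, adjusted p = 0.003), and ACSS2 by 1.25 (adjusted p = 0.0022). ACLY, which makes cytosolic acetyl-CoA, rose from 64.3 and 52.5 to 166 and 137 TPM (1.36, SE 0.23, adjusted p = 0.0019). TM7SF2 (1.23, adjusted p = 0.032, 0.3 without control replicate b, 0.19 without doxorubicin replicate a) and PMVK (1.17, adjusted p = 0.045, 0.34 without control replicate b, 0.21 without doxorubicin replicate a) rose with it. Cholesterol and fatty acid synthesis genes called higher were 5 without control replicate a, 1 without control replicate b and 1 without doxorubicin replicate a, and called lower were 7 without control replicate b, and scaling by median ratios gave 8 higher and 12 lower.

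Of 32 genes of glycolysis and hypoxia 11 fell and 1 rose (median -0.47). ALDOA, the main aldolase, fell from 684 and 846 to 158 and 245 TPM (-1.94, SE 0.27, adjusted p = 0.00069). ALDOC fell from 128 and 192 to 22.4 and 45.9 TPM (-2.25, SE 0.32, adjusted p = 0.00069), and NDRG1, a gene of hypoxia, from 192 and 187 to 27.7 and 45.8 TPM (-2.38, SE 0.33, adjusted p = 0.0007). In these 3 genes doxorubicin replicate a was the lowest library. SLC2A1, the glucose transporter GLUT1, rose from 43.8 and 42.1 to 121 and 145 TPM (1.61, SE 0.21, adjusted p = 0.0005). Glycolysis and hypoxia genes called higher were 2 without doxorubicin replicate b, and called lower were 7 without control replicate b. None of the 13 mRNA genes encoded in mitochondria was called (median -0.04). MT-ND4 had 536 and 595 TPM in control and 323 and 218 TPM with doxorubicin (adjusted p = 0.058), and MT-CYB had 159 and 123 TPM in control and 299.7 and 227 TPM with doxorubicin (adjusted p = 0.098), so the 2 lay on opposite sides of no change. Mitochondrially encoded mRNA genes had a median of 0.21 without control replicate a and 0.27 without doxorubicin replicate b, opposite in sign. Of 55 nuclear genes of oxidative phosphorylation, 9 fell and 3 rose (median -0.05). The rises were NDUFB9 (0.85, adjusted p = 0.012, 0.053 without control replicate a, 0.11 without doxorubicin replicate a), NDUFB10 (0.75, adjusted p = 0.015, 0.07 without control replicate a, 0.057 without control replicate b, 0.063 without doxorubicin replicate a, 0.062 without doxorubicin replicate b) and ATP5MC1 (0.80, adjusted p = 0.017, 0.11 without control replicate b, 0.071 without doxorubicin replicate a, 0.069 without doxorubicin replicate b). SDHB, of complex II, fell by 0.72 (adjusted p = 0.018, 0.12 without control replicate b, 0.052 without doxorubicin replicate a, 0.096 without doxorubicin replicate b). Nuclear oxidative phosphorylation genes called higher were 1 without control replicate a, 1 without control replicate b, 0 without doxorubicin replicate a and 1 without doxorubicin replicate b, and called lower were 5 without control replicate a, 0 without control replicate b, 1 without doxorubicin replicate a and 1 without doxorubicin replicate b, and scaling by median ratios gave 4 higher and 5 lower. Nuclear oxidative phosphorylation genes had a median of 0.06 without doxorubicin replicate b, opposite in sign.

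Lysosome and autophagy genes fell in 11 of 38 cases and rose in 3 (median -0.13). NPC2, a sterol carrier of lysosomes, fell from 53.1 and 70.2 to 16.5 and 20.5 TPM (-1.68, SE 0.22, adjusted p = 0.00048). ATG2A (-1.27) and GABARAPL1 (-1.11) of autophagosome formation fell. GAA (1.12, adjusted p = 0.018, 0.14 without control replicate b, 0.099 without doxorubicin replicate a) and SQSTM1 (1.14, adjusted p = 0.041, 0.26 without control replicate b, 0.28 without doxorubicin replicate a) rose. Lysosome and autophagy genes called higher were 1 without control replicate b and 1 without doxorubicin replicate a, and called lower were 7 without control replicate a, 2 without control replicate b, 4 without doxorubicin replicate a and 7 without doxorubicin replicate b, and scaling by median ratios gave 9 higher and 12 lower.

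Replication-dependent histone genes, which need S phase for their RNAs, fell in 7 of 43 cases and rose in 1 (median -0.34). That share of falls is close to the 14.3% of all tested genes that fell. HIST1H4D fell from 187 and 258 to 55.9 and 84.6 TPM (-1.66, SE 0.25, adjusted p = 0.001) and HIST1H3B from 70.1 and 50.3 to 10.1 and 19.6 TPM (-1.998, SE 0.42, adjusted p = 0.0058). HIST1H2BO (-1.58) and HIST1H4A (-1.51, adjusted p = 0.0045) fell, and HIST1H2BE rose by 1.11 (adjusted p = 0.027, 0.2 without control replicate b, 0.21 without doxorubicin replicate a). Histone genes are near copies, and single values are uncertain. Replication-dependent histone genes called higher were 2 without control replicate a, 0 without control replicate b, 0 without doxorubicin replicate a and 2 without doxorubicin replicate b, and called lower were 4 without control replicate b and 4 without doxorubicin replicate a, and scaling by median ratios gave 3 higher and 7 lower. Of 30 genes of the nuclear lamina and chromatin 11 fell and 1 rose (median -0.37). H2AFZ, a histone variant, fell from 147 and 194 to 58.2 and 68.96 TPM (-1.40, SE 0.24, adjusted p = 0.002), and HMGB1 from 32.7 and 41.6 to 15.2 and 15.04 TPM (-1.23, SE 0.22, adjusted p = 0.0026). HMGA2 was the rise, from 4.65 and 3.25 to 19.7 and 13.6 TPM (1.82, SE 0.33, adjusted p = 0.0026). Nuclear lamina and chromatin genes called lower were 6 without control replicate b and 5 without doxorubicin replicate a. Among 13 tubulin and related genes 4 fell and 1 rose (median -0.40), with STMN1 (-1.56), TUBB4B (-1.03, adjusted p = 0.0081, 0.1 without control replicate b) and TUBA1B (-1.36, adjusted p = 0.012, 0.14 without control replicate b, 0.098 without doxorubicin replicate a) lower and TUBB6 (0.78, adjusted p = 0.024, 0.17 without control replicate b, 0.18 without doxorubicin replicate a) higher. Tubulin genes called higher were 0 without control replicate b and 0 without doxorubicin replicate a, and called lower were 1 without control replicate b and 2 without doxorubicin replicate a.

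**Figure D3:**
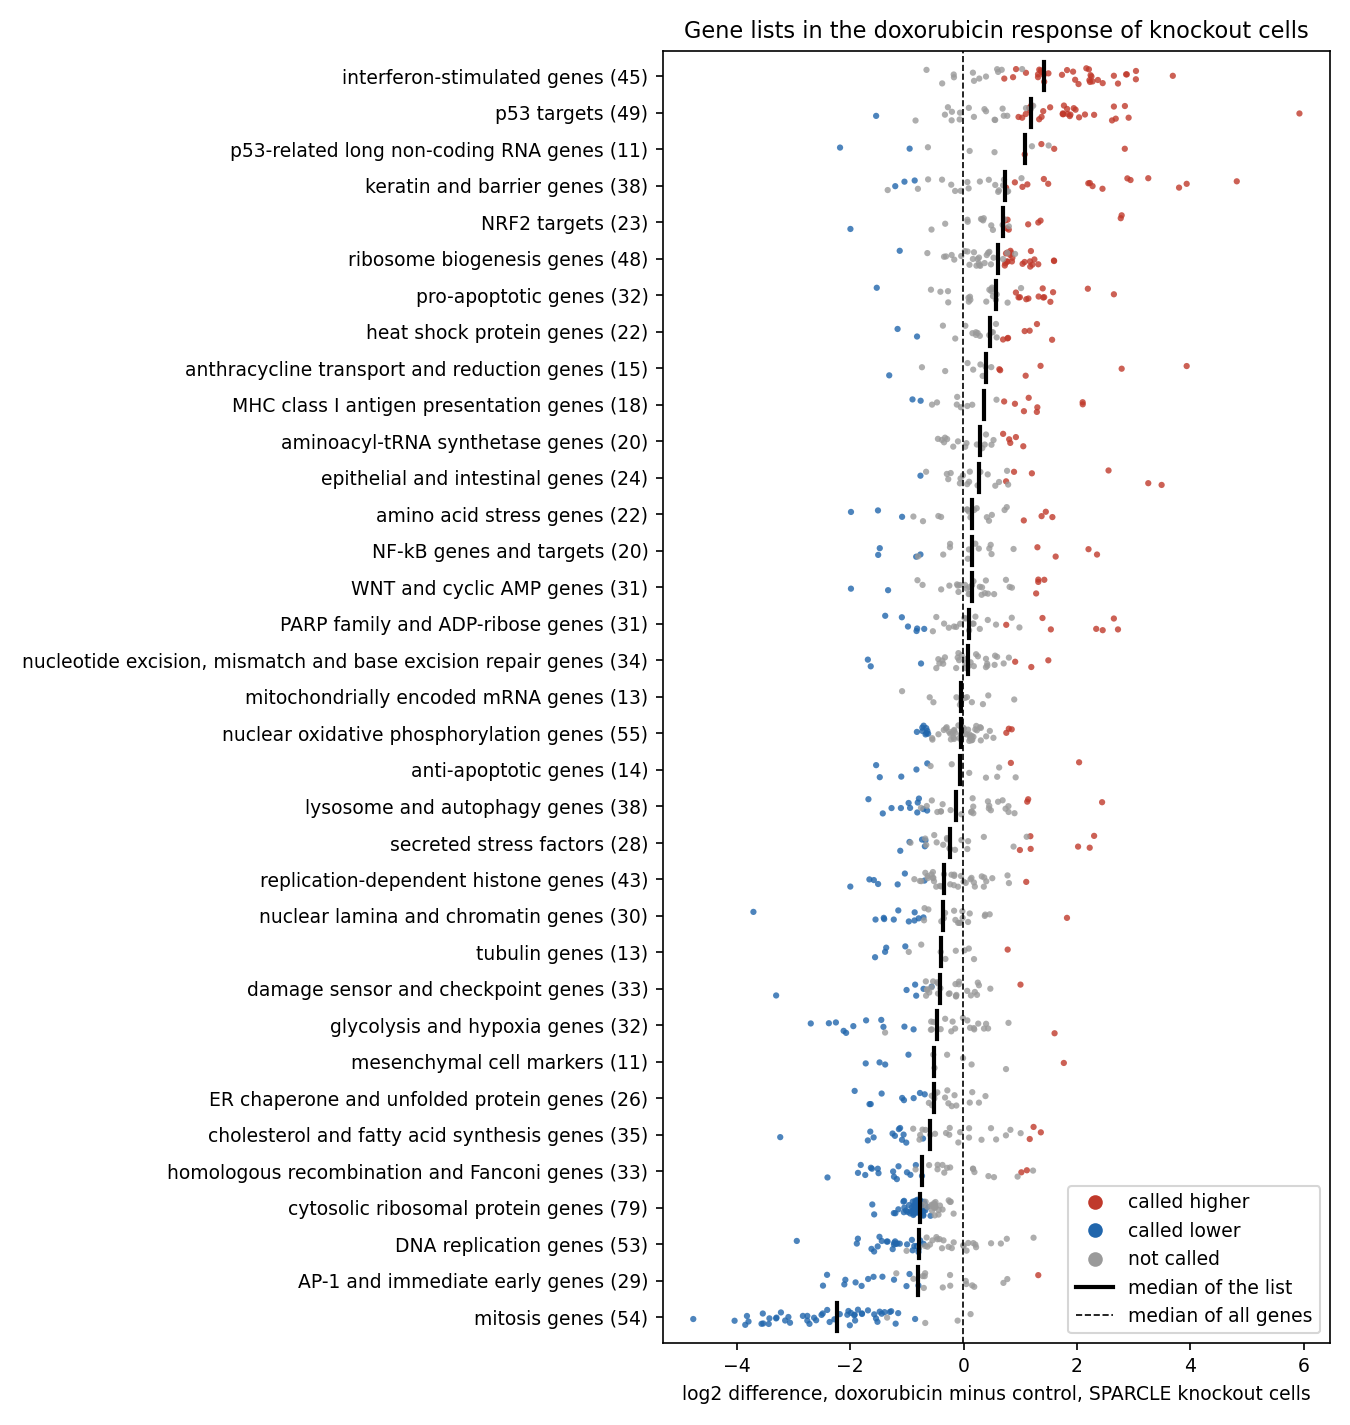
Log2 difference (doxorubicin minus control, knockout cells) of each tested member of the 35 lists with at least 10 tested genes, one list per row with its number of tested genes, ordered by median. Red points were called higher, blue lower and grey not called, black bars are list medians and the dashed line is the median of all genes (-0.01); the interferon list has the highest median (1.42) and the mitosis list the lowest (-2.23).

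Keratin and barrier genes rose in 16 of 38 tested cases, of 50 listed, and fell in 3 (median 0.73). That share of falls is below the 14.3% of all tested genes that fell, so the falls are given as single genes. Besides KRT23, KRT20, ABCA12 and LCE1F, KRT17, a keratin of basal and wounded epithelium, rose from 0.607 and 1.14 to 11.1 and 5.66 TPM (2.28, SE 0.33, adjusted p = 0.00076). S100A2, a calcium-binding protein and p53 target, rose from 6.22 and 12.5 to 119.5 and 43.5 TPM (2.89, SE 0.43, adjusted p = 0.00094). The falls included genes of attachment, namely the laminin chain LAMB3 (-1.04, adjusted p = 0.038, 0.37 without control replicate b, 0.16 without doxorubicin replicate b) and the desmosomal PKP2 (-0.86, adjusted p = 0.018, 0.12 without control replicate b, 0.072 without doxorubicin replicate a, 0.088 without doxorubicin replicate b). Keratin and barrier genes called higher were 10 without control replicate b and 9 without doxorubicin replicate a, and called lower were 1 without control replicate b and 1 without doxorubicin replicate a. Of 24 epithelial and intestinal genes 6 rose and 1 fell (median 0.27). EHF, an epithelial ETS factor, rose from 17.2 and 12.9 to 113 and 75.97 TPM (2.56, SE 0.42, adjusted p = 0.0017). KRT8 rose from 286 and 291 to 487 and 485 TPM (0.75, SE 0.19, adjusted p = 0.013, 0.068 without control replicate b, 0.069 without doxorubicin replicate a), and CLDN7, a tight junction claudin, fell from 156 and 235 to 102 and 124 TPM (-0.76, SE 0.23, adjusted p = 0.032, 0.28 without control replicate b, 0.18 without doxorubicin replicate a). The difference of CDH1 was 0.11 (adjusted p = 0.74) and that of EPCAM -0.01 (adjusted p = 0.98). Epithelial and intestinal genes called higher were 3 without control replicate b, and called lower were 0 without control replicate b and 0 without doxorubicin replicate a. Of 31 genes of the WNT and cyclic AMP pathways 4 rose and 2 fell (median 0.15). CCND1, cyclin D1, rose from 135 and 99.99 to 274 and 311 TPM (1.32, SE 0.27, adjusted p = 0.0054, 0.062 without control replicate b), and ZNRF3, a feedback inhibitor of WNT, by 1.42 (adjusted p = 0.01, 0.11 without control replicate b). WNT16 fell from 8.56 and 5.69 to 0.758 and 1.32 TPM (-1.99, SE 0.35, adjusted p = 0.0024), and PRKAR2B, a regulatory subunit of protein kinase A, by 1.33 (adjusted p = 0.01, 0.052 without control replicate a, 0.1 without doxorubicin replicate a). WNT and cyclic AMP genes called higher were 0 without control replicate b and 2 without doxorubicin replicate a, and called lower were 1 without control replicate a and 1 without doxorubicin replicate a, and scaling by median ratios gave 5 higher and 4 lower. WNT and cyclic AMP genes had a median of -0.01 without doxorubicin replicate a, opposite in sign.

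Markers of other cell types were sparse. Of 23 mesenchymal markers 11 were tested, 1 rose and 4 fell (median -0.51). SNAI1, a repressor of CDH1, fell from 20.2 and 28.6 to 6.44 and 6.72 TPM (-1.73, SE 0.24, adjusted p = 0.0006), ZEB1 by 1.38 (adjusted p = 0.0014) and FN1, fibronectin, from 8.43 and 7.52 to 1.87 and 2.59 TPM (-1.48, SE 0.25, adjusted p = 0.0019). ACTA2, smooth muscle actin and also a p53 target, rose from 2.63 and 2.16 to 14.5 and 7.596 TPM (1.77, SE 0.33, adjusted p = 0.0033). Of 22 leukocyte markers 5 were tested. CD68, a lysosomal protein that many cells make, fell from 24.2 and 43.9 to 4.93 and 8.96 TPM (-2.13, SE 0.40, adjusted p = 0.0034), and no other of them was called. Of 16 endothelial and neural markers 4 were tested, and SYP fell by 1.03 from under 2 TPM (adjusted p = 0.0046). The summed TPM of the tested leukocyte markers was 46.3 and 64.1 in control and 21.3 and 29.96 with doxorubicin, and that of the mesenchymal markers 119.8 and 96.9 in control and 138 and 73.8 with doxorubicin. PTPRC, CD3E, CD14, PECAM1, VWF, CDH5 and COL3A1, which mark leukocytes, endothelium and fibroblasts, were not among the genes that passed the filter. The part of the other markers in the results was not tested.

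The replicates of 1 medium differed by gene in a patterned way. Among genes with a mean of at least 5 TPM with doxorubicin, replicate a stood furthest above replicate b in H19, LCE1F, SORCS2, LCE1C and AKR1B10. H19, an imprinted long non-coding RNA, had 9.41 and 13.2 TPM in control and 230.1 and 4.12 TPM with doxorubicin, so 1 treated library was above and the other below both controls. It was not called (1.501, adjusted p = 0.42, 0.0024 without doxorubicin replicate b), and its difference was -1.25 without doxorubicin replicate a. In OE cells its values with doxorubicin were 187 and 19.5 TPM and in WT cells 20.1 and 13.2 TPM, so replicate a was above b there as well. AKR1B10, an aldo-keto reductase, had 20.4 and 1.900 TPM with doxorubicin and 0.186 and 0.119 TPM in control. LCE1C had 23.01 and 1.95 and SORCS2 16.6 and 1.05 TPM with doxorubicin. Replicate b stood furthest above replicate a in TGM2 (1.91 and 10.1 TPM), LOXL2 (2.93 and 11.7), TNFRSF6B (29.6 and 75.6), VGF (2.44 and 7.602) and KRT13 (7.75 and 20.8). VGF, a secreted neuropeptide precursor, fell from control values of 36.01 and 75.2 TPM by 3.29 (adjusted p = 0.00043), and KRT13, a keratin of internal stratified epithelium, rose from 0.877 and 2.400 TPM by 2.45 (adjusted p = 0.0073). TGM2, transglutaminase 2, was at 17.2 and 10.3 TPM in control, and doxorubicin replicate b lay just under the lower of them (-1.34, adjusted p = 0.075, 0.0025 without doxorubicin replicate b, not called).

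The same gap was present in the OE cells. Across 9210 genes the difference between doxorubicin replicates a and b in knockout cells correlated with that in OE cells at r = 0.830, and with that in WT cells at 0.0903. These libraries share no sample, and the labels name no batch. In control medium the gap of the knockout replicates correlated with that of the OE replicates at r = 0.523 and with that of WT at -0.432. In control medium replicate a was furthest above b in CENPB (19.4 and 4.11 TPM), BAIAP2-DT (8.86 and 1.505), NTSR1 (9.31 and 1.695), ZNF503 (17.7 and 4.23) and SLC9A3-AS1 (12.1 and 2.89). Of these NTSR1, the neurotensin receptor, rose to 21.8 and 30.9 TPM (2.35, SE 0.56, adjusted p = 0.011, 0.12 without control replicate b). Replicate b was furthest above a in TTK, UBE2C, HSPA5, PPP2R2A (13.7 and 48.4) and PCLAF (3.101 and 12.3), of which 3 act in replication or mitosis.

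**Figure D4:**
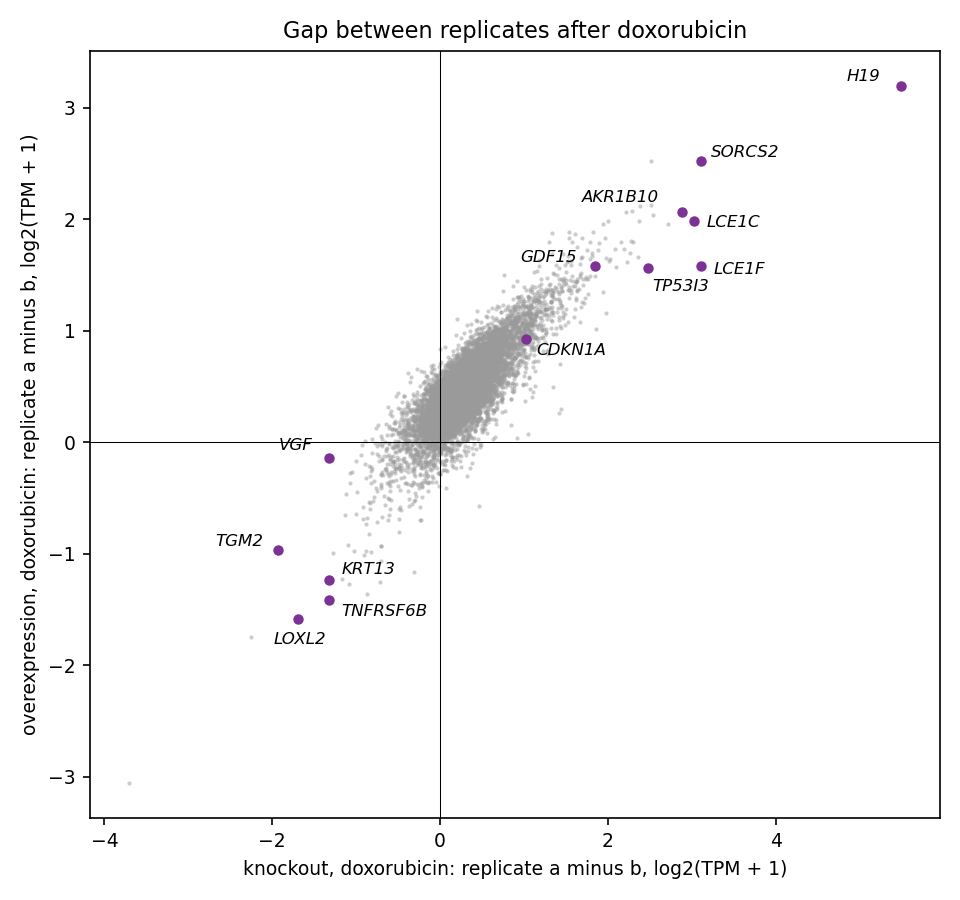
Gap between doxorubicin replicates a and b in log2(TPM + 1) for knockout cells (horizontal) and SPARCLE over-expressing cells (vertical), 1 point per protein-coding or long non-coding gene with a mean of at least 5 TPM in the knockout doxorubicin libraries; named genes are purple. Points lie along a rising line, with H19 at 5.50 and 3.20 and LOXL2 at -1.69 and -1.58.

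The response of knockout cells was set beside those of the other cells of the series, which share no library with it. Across the 15256 genes the differences correlated at r = 0.930 with those of WT cells and 0.954 with those of OE cells, as a description across genes. Of the 3695 genes called in knockout cells, 3681 had the same sign in WT and 3692 in OE cells. The test of the difference between the responses of knockout and WT cells called 1 gene (0.00655% of those tested), with 194 genes at an unadjusted p under 0.05, where 5% of the tested genes is 763. The fit without control replicate b of the knockout cells called 3 genes and the fit without their doxorubicin replicate a likewise 3. Between knockout and OE cells 0 genes were called (0%), with 50 at an unadjusted p under 0.05. The 194 and 50 genes are well under 763, so the p values of both tests may run large and the tests may call too few genes. The cause of this was not tested. These counts of calls do not show that the responses are alike. List medians stood side by side at 1.19, 1.52 and 1.30 in knockout, WT and OE cells for p53 targets, -2.23, -2.45 and -2.10 for mitosis genes, and 1.42, 1.202 and 1.63 for interferon-stimulated genes. For glycolysis and hypoxia genes they were -0.47, 0.02 and -0.42. The median over all genes was -0.01 in knockout, 0.17 in WT and 0.11 in OE cells, so WT medians sit on a higher base.

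The called gene was PDE4B, a cyclic AMP phosphodiesterase. Its TPM was 0.0375 and 0.0572 in knockout control and 0.0968 and 0.0379 in knockout doxorubicin libraries (3 and 5 and 15 and 7 reads), and 1.402 and 1.91 in WT control and 23.03 and 22.1 in WT doxorubicin libraries. In OE cells it was at 0.0281 and 0.00996 TPM in control and 0.06902 and 0.0436 TPM with doxorubicin, so it was near absent there as well. The difference of responses was -3.13 (SE 0.29, adjusted p = 0.0012). At the knockout levels a response on the log2(TPM + 1) scale stays near no change, so this difference is nearly all the WT rise. No gene was called on the recovered reads with voom or with a pseudocount of 0.1. None was called among genes with a mean of at least 5 TPM, but PDE4B lies under that filter and was not tested there. The next by p were KRT81, ZBED2, OAS1 and LY6D, none of which was called. KRT81, a hair keratin, had 1.65 and 0.401 TPM with doxorubicin in knockout, 13.6 and 10.01 in WT and 1.07 and 0.337 in OE cells (-2.46, adjusted p = 0.86). ZBED2, a repressor that competes with IRF1, had 4.79 and 2.38, 28.2 and 29.9 and 3.73 and 2.09 TPM in the same order (-2.39, adjusted p = 1). OAS1 had 11.5 and 10.4, 1.04 and 2.49 and 11.3 and 11.9 TPM (1.76, adjusted p = 1), and LY6D 28.9 and 53.5, 2.36 and 0.626 and 30.3 and 79.3 TPM (2.50, adjusted p = 1). In all 5 genes the WT doxorubicin libraries lay apart from the knockout and OE doxorubicin libraries, and the latter overlapped or lay close.

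**Figure D5:**
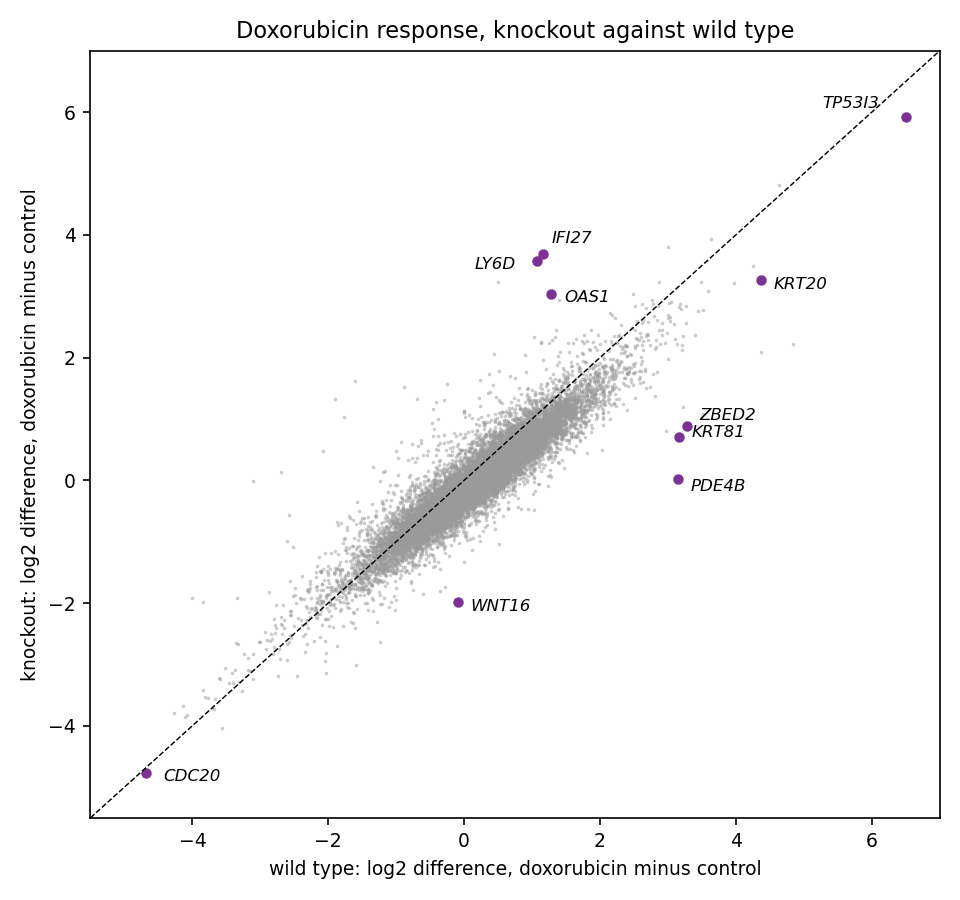
Log2 difference (doxorubicin minus control) of each of 15256 genes in WT cells (horizontal) and knockout cells (vertical), with the line of equal differences dashed and named genes purple. Most genes lie near the line; PDE4B is at 3.15 in WT and 0.03 in knockout cells, and IFI27 at 1.16 and 3.69.

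Against OE cells the smallest p values belonged to SPARCLE, AL357153.2, AC010680.4, AC007688.1 and RNA5S9, and none was called (each adjusted p = 1.0). AL357153.2, a long non-coding gene, fell in knockout cells from 3.09 and 4.93 to 0.0354 and 0.186 TPM (-2.15, SE 0.23, adjusted p = 0.00018), and had 1.44 and 1.69 TPM in control and 0.406 and 0.265 TPM with doxorubicin in OE cells. AC007688.1, a processed pseudogene, fell from 4.301 and 4.55 to 1.103 and 0.901 TPM (-1.44, SE 0.23, adjusted p = 0.0013). WNT16 gave a further contrast with WT, chosen after its values were seen. It fell by 1.99 in knockout cells, and its TPM in WT cells was 74.98 and 51.9 in control and 83.5 and 40.7 with doxorubicin (-1.89 between the responses, adjusted p = 1). IFI27 had 2.85 and 8.91 TPM in WT and 140.4 and 180.4 TPM in OE cells with doxorubicin, against 133 and 138 TPM in knockout cells (2.53 between knockout and WT responses, adjusted p = 1). For both genes the replicates of knockout and WT cells did not overlap with doxorubicin, and the test of the difference was not passed.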

How the data were processed

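RNA-seq of HCT116 cells was deposited as 1 table of log2 TPM values that the authors made, with 16676 genes and 12 libraries. Per the submitters' processing notes, HISAT2 2.0.4, SAMtools 1.7, featureCounts, R 3.3.3 and edgeR 3.12.1 were used with build hg38. The annotation, the strand setting and the role of each tool are not given in the sources used here. Whole reads were recovered from TPM and GENCODE exon lengths for 15182 genes (91.0%, within 0.05 reads; 5 with shuffled lengths) and through a searched length for 1417 more (within 0.01 reads), and these give the read counts and depths.

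Values were put on the log2(TPM + 1) scale. Genes with at least 1 TPM in 2 or more libraries were kept (15256). limma 3.58.1 in R 4.3.3 was fitted with 6 group means over all 12 libraries (6 residual degrees of freedom) with moderated variances and a mean trend, and the same fit gave the contrasts with WT and OE responses. The procedure was also run on simulated reads with known changes. Those reads held no difference shared by replicates, so that run does not bear on the replicate gaps seen here. Python 3.11.15, pandas 2.3.3 and matplotlib 3.10.9 gave descriptions and figures. Of the tested genes 10475 matched a RefSeq promoter window by symbol.

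Genes were named by rule. The rule took SPARCLE, CDKN1A, MDM2 and PARP1, and the 12 largest differences each way among called genes that kept their call under median-ratio scaling, had a mean of at least 5 TPM in either medium and did not overlap, without small RNAs, pseudogenes and clone names. It further took 5 long non-coding genes each way, of each list the 4 smallest adjusted p and up to 3 calls against the majority, the 5 smallest p of each contrast between cells, and the 5 largest replicate gaps each way. The members and the 37 lists were chosen with earlier results of these data known, so no list is independent evidence of its direction. Same-lettered replicates were not treated as pairs, because the labels do not say what a letter marks. Alternatives were another pseudocount, other filters, scalings and samples in the fit, voom on reads, a replicate block, a minimum fold and leaving out each library. A few genes that the rule names are not reported here.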

Additional observations from a re-analysis of the deposited data

Results flagged for a closer look

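PDE4B differed between the doxorubicin responses of knockout and WT cells by -3.13 (SE 0.29, limma adjusted p = 0.0012), the called gene of that test. Its WT levels went from 1.402 and 1.91 to 23.03 and 22.1 TPM, while the knockout levels were 0.0375 and 0.0572 TPM in control and 0.0968 and 0.0379 TPM with doxorubicin. It was near absent in OE cells as well, so the WT cells stood apart from both other kinds of cells. At the knockout levels a response on the log2(TPM + 1) scale stays near no change in either medium. The difference is thus nearly all the WT rise and does not measure a lost response. That test called 0 genes with voom and with a pseudocount of 0.1. It also called 0 among genes with a mean of at least 5 TPM, a filter that PDE4B does not pass, so that setting could not call it.

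In 3 further genes the listed values of every library of one kind of cell moved against those of another, and the difference between the responses did not pass limma's test. One of them, SPARCLE, lay near the floor of 3 reads in knockout cells, so its direction there is not measurable. Its knockout minus OE difference of responses was 1.04 (adjusted p = 1.0), with OE levels of 26.5 and 27.3 TPM in control and 13.7 and 13.5 TPM with doxorubicin and knockout counts of 0 and 0 and then 4 and 1 reads. For the long intergenic non-coding gene AC010680.4 it was -1.37 (adjusted p = 1.0), with 3.21 and 3.73 TPM and then 1.84 and 1.34 TPM in knockout cells, and 1.28 and 1.49 TPM and then 3.42 and 1.87 TPM in OE cells. RNA5S9, a gene of 5S ribosomal RNA that has many copies, differed by 3.23 from the WT response and by 2.9 from the OE response (both adjusted p = 1.0). Its knockout libraries held 6 and 0 reads in control and 12 and 15 reads with doxorubicin. The treated libraries were deeper, with 28804118 and 30687855 recovered reads against 15622388 and 16534102 in control, so these counts overstate the gap between media. The difference rests largely on control replicate b, which held 0 reads.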

How the results depend on the processing

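The number of genes called in knockout cells was 3695, against 2353 among genes with a mean of at least 5 TPM, where 9210 were tested. It was 2431 when only the 4 knockout libraries entered the fit, 5736 with median-ratio scaling, 5879 with voom on recovered reads and 2288 with a minimum absolute log2 difference of 1. Leaving out 1 knockout library gave 1167 to 3202 calls, lowest without control replicate b and next without doxorubicin replicate a (1570), and leaving out 1 WT or OE library gave 3153 to 4273. The counts with a pseudocount of 0.1 (3534), without a filter (3851) and without small RNA genes (5146) stayed within 1.5 times. With the replicate letter as a replicate block 4778 genes were called, 2125 higher and 2653 lower. The labels do not say what a letter marks, and 2 letters are too few pairs to settle it. The gap between replicates a and b correlated between knockout control and knockout doxorubicin at 0.13, between the media of WT cells at 0.27, between those of OE cells at 0.26, between knockout and OE doxorubicin at 0.83, between knockout and OE control at 0.52 and between WT and knockout control at -0.43. The difference from the WT response called 1 gene and 0 genes with a pseudocount of 0.1, 0 among genes with a mean of at least 5 TPM and 0 with voom, and between 1 and 3 without a library. PDE4B was not among the genes with a mean of at least 5 TPM, so that setting could not call it. The replicate block left the difference from the WT response at 1 and the OE contrast at 0, and the OE contrast was at 0 in each setting run, voom included. No called gene among those named by rule changed direction in an alternative. Of the 37 list medians 8 changed sign without 1 knockout library, as did the uncalled difference of H19. Of 192 called genes among the 215 named by rule, 118 kept their call in all 12 alternatives, while 67 lost it without control replicate b and 53 without doxorubicin replicate a. Of 74 list counts 12 stayed within 1.5 times throughout. The cause of these changes was not tested, except that the stricter filter and smaller fits hold fewer genes or libraries. With 2 libraries a group, and 15622388 to 30687855 reads in the knockout libraries, genes near the floor of 3 reads, such as SPARCLE, give no measurable difference.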

Other observations

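Some gene families outside the lists were looked up by symbol after their values were seen, and they are given as counts. Of 4 tested metallothioneins, small proteins that bind zinc and copper, 3 fell and 0 rose (median -2.16). MT2A was at 282 and 315 TPM in control and 27.5 and 36.6 TPM with doxorubicin (-3.19, SE 0.21, adjusted p = 1.8e-05), a tight pair in each medium and no overlap. MT1X fell from 35.8 and 54.3 to 3.33 and 6.27 TPM (-3.01, SE 0.32, adjusted p = 0.00018) and MT1F from 3.500 and 3.95 to 0.7601 and 1.07 TPM (-1.31, SE 0.23, adjusted p = 0.0021). MT1E had 73.3 and 50.9 TPM in control and 46.1 and 53.9 TPM with doxorubicin and was not called (adjusted p = 0.4). Metallothioneins are near copies, so their reads may be split. In WT cells MT2A was at 223 and 208 TPM in control and 37.5 and 38.97 TPM with doxorubicin, and in OE cells at 327 and 270.4 and then 28.7 and 37.3 TPM.

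Proteasome subunit genes rose in 8 of 36 cases and fell in 0 (median 0.38), and with median-ratio scaling in 15 and 0. Solute carriers rose in 40 of 225 cases and fell in 13 (median 0.38), and with that scaling in 82 and 19. Kinesins fell in 15 of 33 cases and rose in 2 (median -0.59), and many of them act in mitosis. Mitochondrial ribosomal protein genes rose in 12 of 78 cases and fell in 2 (median 0.15), and with the scaling in 23 and 2. The zinc finger genes named ZNF rose in 19 of 356 cases and fell in 38 (median 0.02), and with the scaling in 61 and 71. Counts without the scaling stand beside the 9.90% of all tested genes that rose and the 14.3% that fell, and those with it beside 18.9 and 18.7%.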
